A study of Mus musculus with 6 samples.

Results

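The S100 calcium-binding protein cluster is a group of neighbouring genes on mouse chromosome 3. Its 10 members described here, S100a1, S100a3, S100a4, S100a6, S100a8, S100a9, S100a10, S100a11, S100a13 and S100a14, were taken by name from the platform annotation. They are 10 of 20848 measured genes, and 35 of 241576 probe sets name one of them alone. Expression was measured on 6 arrays of 4TO7, a mouse mammary tumour cell line. There were 3 arrays of cells labelled as transduced for Six2 overexpression (Six2) and 3 of cells transduced with pcDNA (control), and both groups are the same line. The labels give neither the culture of each replicate, nor whether the cells were clones or pools, nor the species, promoter or level of the Six2 insert.

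S100 proteins are small proteins with paired EF-hand loops that bind calcium. Most work as dimers, which change shape with calcium and then grip a partner such as an annexin, a myosin or a kinase, and several also act outside the cell on receptors such as RAGE and TLR4. Most S100 genes lie in a cluster that flanks the epidermal differentiation complex, a run of genes for skin barrier proteins. S100a4, S100a8 and S100a9 are among the members best known from mammary tumours.

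All values are RMA values on the log2 scale, so that a difference of 1 is a 2-fold change, and differences are Six2 minus control. The value of a gene is the median over its probe sets. A gene changed where limma's adjusted p over all genes was under 0.05. The replicates may be technical, in which case p-values measure only the spread between arrays. No batch is known here, and one aligned with the groups cannot be told apart from Six2. Array correlations over genes were 0.992 to 0.994 within Six2, 0.994 within control and 0.983 to 0.987 between groups. The Six2 gene itself averaged 3.86 ± 0.23 in Six2 arrays and 3.52 ± 0.23 in control arrays (SD, n = 3 each), a difference that did not pass (limma adjusted p = 0.215), so it is a weak check of the labels. The E-cadherin gene Cdh1, named in the series title, was at 4.41 ± 0.17 in Six2 arrays and 7.57 ± 0.11 in control arrays (SD, n = 3 each). Of the mammary epithelial markers, 5 of 8 fell, against 8.02% of all genes, and 2 of 8 had a mean level above 6. Their summed linear level was 5195 to 5758 in Six2 arrays and 8728 to 9260 in control arrays. The keratin genes Krt8 (11.77 against 12.33) and Krt18 (10.93 against 11.74) were bright in both groups, while Epcam was at 3.72 in Six2 arrays and 4.47 in control arrays. Krt5 went the other way (3.99 in Six2 arrays, 3.28 in control arrays) and Krt14 was level (4.44 and 4.48), and neither passed. Macrophage markers summed to 325 to 356 in Six2 arrays and 713 to 766 in control arrays, with 2 of 9 above 6. Cd14 was at 7.09 in Six2 arrays and 8.94 in control arrays, while Mrc1 was at 4.82 and 3.81 and did not pass, and the median level of the list was 3.67 to 4.00 in Six2 arrays and 3.86 to 4.07 in control arrays. Fibroblast markers had 1 of 8 above 6 and sums of 229 to 247 against 243 to 260, and endothelial markers had 0 of 6 and sums of 63.7 to 71.3 against 62.1 to 74.4. The part of these markers in the S100 values was not tested, and in bulk RNA fewer cells of a type and less RNA per cell cannot be told apart.

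Of the 10 S100 genes, 1 fell, 0 rose and 9 did not pass. The gene that fell was S100a1. Among all genes 8.02% fell and 6.7% rose, so 1 lower call in 10 is near the background. At an unadjusted limma p under 0.05 there were 3 genes, S100a1, S100a3 and S100a8, all lower in Six2 arrays. The share of all genes under that unadjusted limit was not counted, so these 3 cannot be read as an excess. In these 3 genes the highest Six2 array was below the lowest control array, a gap seen in 20.1% of all genes. In S100a13 the lowest Six2 array was above the highest control array, a gap seen in 15.7% of all genes, and in the other 6 the groups overlapped. The median difference of the 10 genes was -0.032, against -0.046 over all genes. A mean above 6 over the 6 arrays, used here as the mark of an expressed gene, was reached by 7 of the 10 genes. The other 3, S100a3, S100a9 and S100a14, were dim. S100a8, with a mean of 6.05, lay just inside that limit and S100a3, with a mean of 5.82, just outside it.

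**Figure D1:**
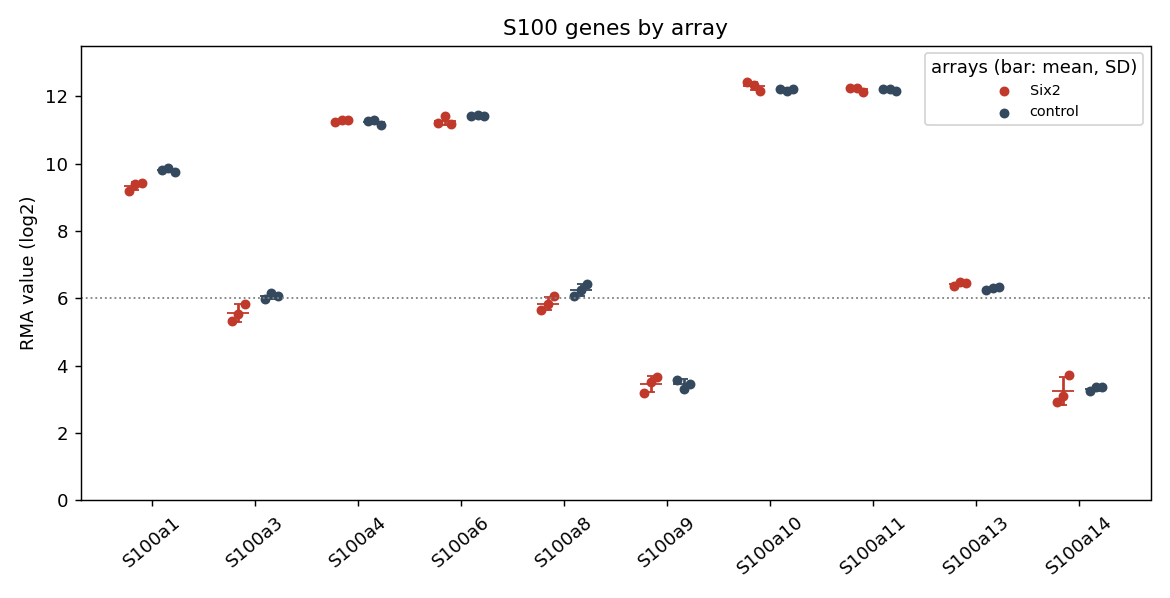
RMA values (log2, vertical axis) of the 10 S100 genes in single arrays (points), Six2 left and control right within each gene, with bars for the mean and SD of 3 arrays and a dotted line at 6. The Six2 points of S100a1 lie between 9.19 and 9.42, below all control points, while those of S100a10 and S100a11 overlap with control.

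S100a1 and S100a13 stand head to head. S100A1 is best known from heart and skeletal muscle, where it binds the ryanodine receptor and the calcium pump SERCA2. S100A13 takes part in the release of FGF1 and interleukin 1 alpha, proteins that leave the cell without a signal peptide. Between the transcript starts of this pair in RefSeq (GRCm38.p6), which point away from each other, lie 104 bases, of which 58.7% are G or C. The stretch is shown because both genes share it although only S100a1 fell. It is chr3:90514331-90514434, read on the minus strand, which is that of S100a1, and no letters are capitals because neither motif searched below occurs in it.
S100a1_S100a13: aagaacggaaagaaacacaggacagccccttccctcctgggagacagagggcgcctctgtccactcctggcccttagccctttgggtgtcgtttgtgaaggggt

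S100a1 was at 9.19, 9.39 and 9.42 in Six2 arrays and at 9.83, 9.89 and 9.76 in control arrays. All Six2 arrays were lower, and the lowest was Six2 replicate 1. The means were 9.33 ± 0.12 in Six2 arrays and 9.82 ± 0.063 in control arrays (SD, n = 3 each), a fall of 1.40-fold (-0.49 on the log2 scale, SE 0.10, 95% interval -0.73 to -0.26, limma adjusted p = 0.0195). In each of its 4 probe sets the Six2 arrays were all below control, with differences from -0.67 to -0.33, but none passed over all probe sets. The call was lost without Six2 replicate 1, without control replicate 1 or 2, with the replicate number as a block and with its best probe set alone, while the difference stayed between -0.67 and -0.42 over all 15 alternatives (limma adjusted p up to 0.0818). Only 11 of the 419 expressed genes of chromosome 3 had a lower difference. The plot of values by array shows the gap between the groups of S100a1.

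S100a13 was at 6.37, 6.49 and 6.46 in Six2 arrays and at 6.24, 6.30 and 6.34 in control arrays. All Six2 arrays were higher, by little. The means were 6.44 ± 0.062 in Six2 arrays and 6.29 ± 0.047 in control arrays (SD, n = 3 each), and the difference of 0.15 did not pass (SE 0.09, 95% interval -0.058 to 0.35, limma adjusted p = 0.310). Its 4 probe sets went from -0.47 to 0.39 and in each the groups overlapped. Within an array, S100a1 minus S100a13 was 2.82, 2.90 and 2.96 in Six2 arrays and 3.58, 3.59 and 3.42 in control arrays. That gap was smaller in all Six2 arrays, by -0.64 on average (two-sided exact permutation p = 0.1, the smallest that 3 against 3 arrays allow), in a pair chosen after its values were seen. In RefSeq a second S100a13 transcript starts inside S100a1, so the spans of the genes overlap there. The partner Fgf1 was dim, at 3.23 ± 0.34 in Six2 arrays and 3.26 ± 0.32 in control arrays (SD, n = 3 each).

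S100a3, known for its abundance in the hair cuticle, was at 5.33, 5.53 and 5.84 in Six2 arrays and at 5.98, 6.17 and 6.08 in control arrays. All Six2 arrays were lower, with replicate 3 close to control. The means were 5.57 ± 0.26 in Six2 arrays and 6.08 ± 0.095 in control arrays (SD, n = 3 each), and the difference of -0.51 did not pass (SE 0.14, 95% interval -0.85 to -0.17, limma adjusted p = 0.0562). It passed with the mean over probe sets (-0.53, limma adjusted p = 0.0155), with a variance trend (limma adjusted p = 0.0460) and without Six2 replicate 3 (-0.65, limma adjusted p = 0.0235), and the adjusted p ran between 0.0155 and 0.174 over its 15 alternatives. Its 4 probe sets all lay below 0, from -0.77 to -0.33.

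S100a4 and S100a6 lie near each other in the cluster, with S100a5 between them. S100A4, also called metastasin, was found as a gene raised in metastatic mouse mammary tumour cells and binds the heavy chain of non-muscle myosin IIA, encoded by Myh9. It was at 11.23, 11.31 and 11.29 in Six2 arrays and at 11.28, 11.31 and 11.16 in control arrays, and the groups overlapped. The means were 11.28 ± 0.041 in Six2 arrays and 11.25 ± 0.079 in control arrays (SD, n = 3 each), which differed by 0.033 (SE 0.09, 95% interval -0.18 to 0.24, limma adjusted p = 0.848). Myh9 fell, at 10.85 ± 0.10 in Six2 arrays and 11.27 ± 0.027 in control arrays (SD, n = 3 each; -0.42, SE 0.09, limma adjusted p = 0.0251). The Myh9 call was lost in 7 of 15 alternatives, among them the brightest probe set (-0.21, limma adjusted p = 0.257).

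S100A6, or calcyclin, is known for growth-linked expression and binds the calcyclin-binding protein Cacybp, a part of a ubiquitin ligase complex. S100a6 was at 11.22, 11.43 and 11.19 in Six2 arrays and at 11.43, 11.44 and 11.43 in control arrays. Six2 replicates 1 and 3 were lower than all control arrays, and Six2 replicate 2 overlapped with them. The means were 11.28 ± 0.13 in Six2 arrays and 11.43 ± 0.0084 in control arrays (SD, n = 3 each), and the difference of -0.15 did not pass (SE 0.10, 95% interval -0.38 to 0.074, limma adjusted p = 0.339). Its dimmest probe set was at 0.28 and the other 2 at -0.081 and -0.16. Cacybp rose by 0.39 (11.44 ± 0.11 in Six2 arrays, 11.05 ± 0.064 in control arrays, SD, n = 3 each, limma adjusted p = 0.0393), a call lost in 9 of 15 alternatives. Cacybp lies on chromosome 1, where the median difference of expressed genes was 0.44, and relative to that chromosome it was at -0.020.

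S100a8 and S100a9 encode the subunits of calprotectin, which neutrophils and monocytes hold in large amounts and which signals through TLR4 and, through the product of Ager, RAGE. S100a8 was at 5.65, 5.83 and 6.06 in Six2 arrays and at 6.06, 6.24 and 6.44 in control arrays. The Six2 arrays were lower throughout, though the highest Six2 array and the lowest control array were almost equal. The means were 5.85 ± 0.21 in Six2 arrays and 6.25 ± 0.19 in control arrays (SD, n = 3 each), and the difference of -0.40 did not pass (SE 0.14, 95% interval -0.74 to -0.061, limma adjusted p = 0.111). It passed in 1 of 15 alternatives, by its brightest probe set (-0.46, limma adjusted p = 0.0486, range 0.0486 to 0.260). Its 2 probe sets were at -0.46 and -0.34.

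S100a9 was dim, at 3.19, 3.50 and 3.68 in Six2 arrays and at 3.58, 3.29 and 3.46 in control arrays. The groups overlapped, with means of 3.46 ± 0.25 in Six2 arrays and 3.44 ± 0.15 in control arrays (SD, n = 3 each) and a difference of 0.011 (SE 0.15, 95% interval -0.34 to 0.36, limma adjusted p = 0.972). Such a level lies near the floor of these arrays, where a change could hardly show. Of 10 neutrophil markers, 0 had a mean above 6, and their summed linear level was 101 to 111 in Six2 arrays and 106 to 123 in control arrays. The median difference of the 10 was -0.020. Of the 10, 1 passed, Ptprc, which marks white blood cells, at a dim level (3.78 in Six2 arrays, 4.41 in control arrays, limma adjusted p = 0.0488). Over all genes 8.02% fell, so 1 lower call in 10 markers is near the background. Ly6g was at 2.51 in Six2 arrays and 2.79 in control arrays, and Csf3r at 3.67 and 3.45. Of the receptors, Tlr4 was at 7.44 ± 0.082 in Six2 arrays and 7.57 ± 0.11 in control arrays (SD, n = 3 each, difference -0.13, limma adjusted p = 0.429) and Ager at 3.87 ± 0.28 and 4.16 ± 0.062 (difference -0.30, limma adjusted p = 0.226).

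S100a10 and S100a11 lie at the far end, beyond the epidermal differentiation complex. S100A10, or p11, has lost the ability to bind calcium and stays bound to annexin A2, and the pair brings plasminogen and its activator tPA to the cell surface. S100a10 was at 12.42, 12.35 and 12.18 in Six2 arrays and at 12.21, 12.16 and 12.23 in control arrays. Six2 replicates 1 and 2 were above control and replicate 3 was within it. The means were 12.31 ± 0.12 in Six2 arrays and 12.20 ± 0.036 in control arrays (SD, n = 3 each), and the difference of 0.11 did not pass (SE 0.10, 95% interval -0.12 to 0.34, limma adjusted p = 0.488). Its 3 probe sets were at 0.11, 0.22 and 0.52. Anxa2 was at 0.036 (11.78 in Six2 arrays, 11.74 in control arrays) and did not pass. Plat, which encodes tPA, fell (-1.31, SE 0.14, limma adjusted p = 0.00212), at 5.02 ± 0.25 in Six2 arrays and 6.33 ± 0.088 in control arrays (SD, n = 3 each), a call lost by its brightest probe set (-0.93, limma adjusted p = 0.0741). Plgrkt, a plasminogen receptor, rose by 0.66 (6.78 in Six2 arrays, 6.12 in control arrays, limma adjusted p = 0.0482), a call lost in 9 of 15 alternatives.

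S100A11 binds annexin A1 and is linked to membrane repair and to growth control in skin cells. S100a11 was at 12.24, 12.25 and 12.14 in Six2 arrays and at 12.21, 12.21 and 12.16 in control arrays, and the groups overlapped. The means were 12.21 ± 0.063 in Six2 arrays and 12.19 ± 0.031 in control arrays (SD, n = 3 each), with a difference of 0.019 (SE 0.08, 95% interval -0.18 to 0.22, limma adjusted p = 0.913). Its 7 probe sets ranged from -0.060 to 0.047, and 3 of them carry numbers far from the other 4. The difference without these 3 was 0.011, an alternative added after the values were seen. The annotation also names S100a11-ps, a pseudogene of S100a11 on chromosome 12, by 1 probe set (difference -0.011, limma adjusted p = 0.962), so probes that match both would mix them. Anxa1 was at 9.90 ± 0.14 in Six2 arrays and 10.03 ± 0.070 in control arrays (SD, n = 3 each, limma adjusted p = 0.448). S100a14, an epithelial member, was dim, at 2.92, 3.11 and 3.72 in Six2 arrays and 3.24, 3.35 and 3.37 in control arrays. The groups overlapped, since Six2 replicate 3 was the highest array and Six2 replicate 1 the lowest. The means were 3.25 ± 0.42 in Six2 arrays and 3.32 ± 0.072 in control arrays (SD, n = 3 each, difference -0.074, limma adjusted p = 0.848).

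The probe sets of single genes show how even these values were. Of the 35 probe sets, 0 passed limma's test over all 241576 rows, where 2.8% did, 1.6% lower and 1.2% higher. Without adjustment, the 95% interval lay below 0 in 3 of the 4 probe sets of S100a1. It also did in a probe set of S100a3 (-1.03 to -0.078) and in the brighter probe set of S100a8 (-0.79 to -0.14). The gene value is a median, and for S100a4, S100a6 and S100a10 the dimmest probe set had a higher difference than the bright ones.

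**Figure D2:**
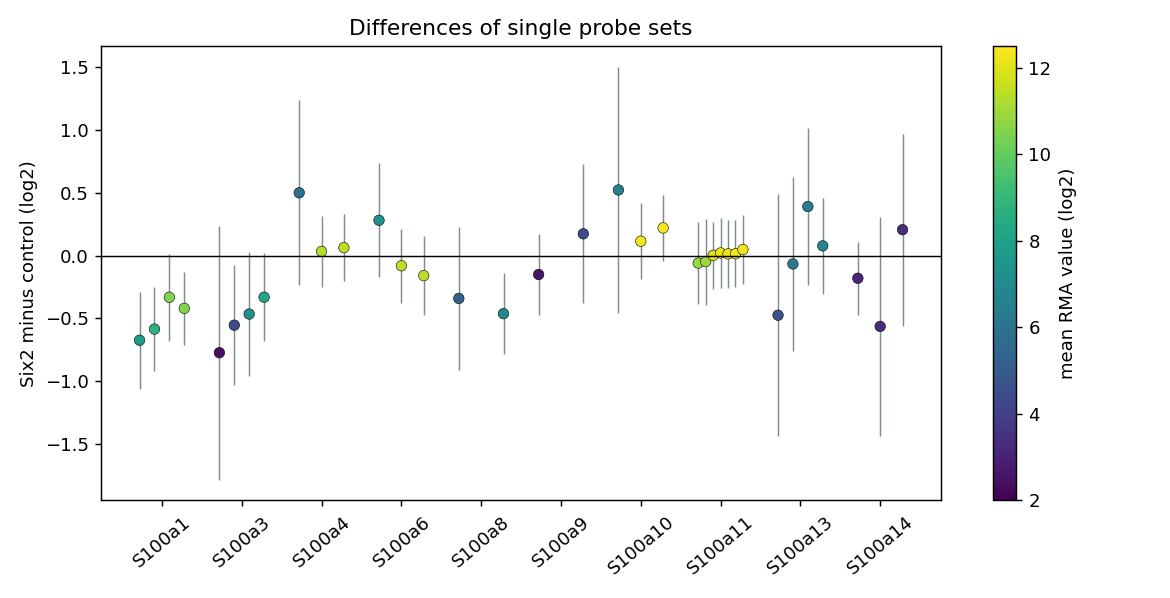
Difference of each of the 35 probe sets (points, Six2 minus control, log2), with 95% limma intervals as lines and colour for the mean RMA value over 6 arrays. The 4 points of S100a1 lie between -0.67 and -0.33 and the 7 of S100a11 between -0.060 and 0.047.

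Expressed genes of chromosome 3 were mostly higher in Six2 arrays. Their median difference was 0.37 over 419 genes, 362 of them were above 0, and 42.5% rose while 3.1% fell. The 7 expressed S100 genes had a median of 0.019, and all 7 lay under the median of the chromosome. To set the genes against this rise, the median over expressed genes of the same chromosome was subtracted in each array. For chromosome 3 it was 8.56, 8.55 and 8.54 in Six2 arrays and 8.21, 8.25 and 8.31 in control arrays, with means that differed by 0.30. Limma was then run over all 8956 expressed genes.

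After this subtraction, 5 of the 7 expressed S100 genes were lower, 0 were higher and 2 did not pass. Among the expressed genes of chromosome 3, 16.7% were lower and 21.2% higher in the same test. Over all 8956 genes tested 33.8% changed, 16.6% lower and 17.2% higher. S100a1 was at -0.79 (SE 0.09, limma adjusted p = 0.000357), S100a8 at -0.70 (SE 0.12, limma adjusted p = 0.00246) and S100a6 at -0.45 (SE 0.09, limma adjusted p = 0.00431). S100a11 was at -0.28 (SE 0.08, limma adjusted p = 0.0235) and S100a4 at -0.26 (SE 0.08, limma adjusted p = 0.0398). S100a10 was at -0.18 (SE 0.08, limma adjusted p = 0.125) and S100a13 at -0.15 (SE 0.07, limma adjusted p = 0.140). In all 7 genes the Six2 arrays were all below control on this scale, a gap seen in 22.9% of the expressed genes of chromosome 3 and in 23.7% of all expressed genes. It follows in part from taking the same level from all of them. The calls of S100a1 and S100a6 held in 15 of 15 alternatives and that of S100a8 in 14 of 14. With the limit for expressed genes at 7, S100a8 was not tested. It passed the limit of 6 only through its control arrays, with means of 5.85 in Six2 arrays and 6.25 in control arrays. The call of S100a4 was lost in 10 of 15 and that of S100a11 in 6 of 15. S100a10 passed in 1 of 15, with a variance trend (limma adjusted p = 0.0271). Leaving out control replicate 1, control replicate 2 or Six2 replicate 3 left 3 calls.

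The dim S100a3 was outside this test. With all genes tested it was at -0.80 (SE 0.14, limma adjusted p = 0.0149), while S100a9 (-0.28, limma adjusted p = 0.257) and S100a14 (-0.37, limma adjusted p = 0.259) did not pass. Dim genes of chromosome 3 were not higher as a group, with a median difference of -0.096 over 390 genes with a mean of at most 4 and 0.050 over 171 genes with a mean between 4 and 6. The subtracted level is therefore not one that dim genes share, a limit that also bears on S100a8, with its mean of 6.05.

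**Figure D3:**
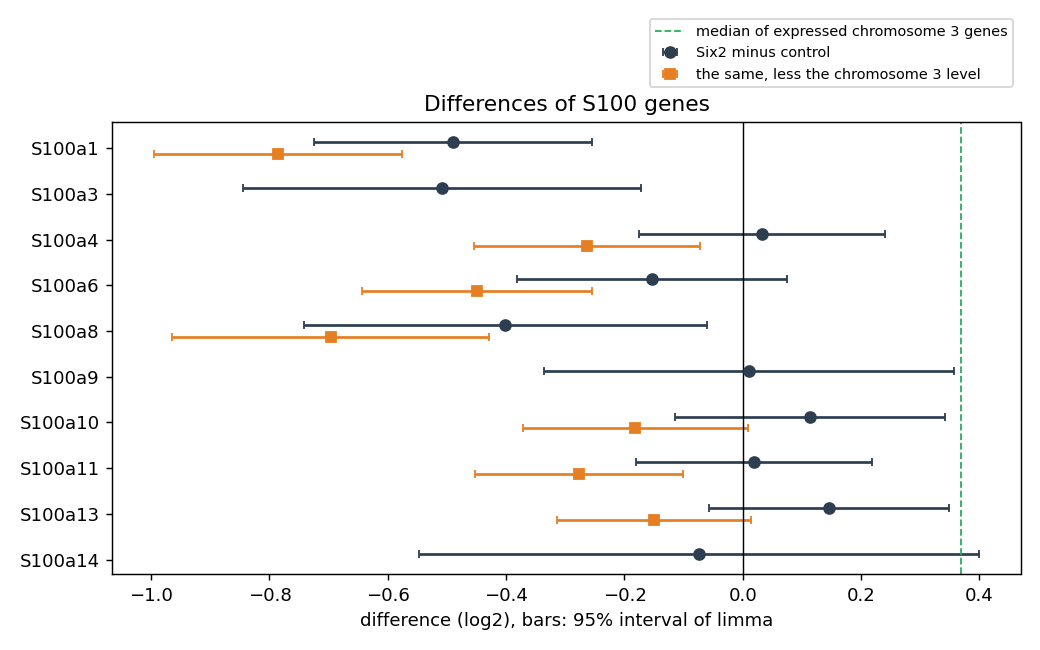
Differences of the 10 S100 genes (Six2 minus control, log2, circles) and of the 7 expressed ones less the chromosome 3 level (squares), with 95% limma intervals as bars. The dashed line is the chromosome 3 median of 0.37, and S100a1 lies farthest below 0 among the squares, at -0.79.

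The rise on chromosome 3 was smaller in bright genes. Its median was 0.42 over 164 genes with means between 6 and 8, 0.36 over 200 genes between 8 and 10, 0.28 over 33 between 10 and 11 and 0.15 over 22 above 11. S100a4, S100a6, S100a10 and S100a11 all had means above 11. A comparison with expressed genes of chromosome 3 whose mean lay within 1 of the gene's own was therefore added after the values were seen. Of the 8925 expressed genes it could test, 16.7% were lower in it. Matches had means above 6, so those of S100a8 (6.05) and S100a13 (6.36) reached less far below them than above. The matches of S100a8 had a median difference of 0.44, against 0.050 for chromosome 3 genes between 4 and 6, which were left out. The comparison left 4 lower calls: S100a1, S100a8, S100a6 and S100a13. S100a1 was at -0.82 (limma adjusted p = 0.000224), with 2 of its 156 matched genes at or below its difference. S100a8 was also at -0.82 (limma adjusted p = 0.000799), with 3 of 71 matched genes at or below it. S100a6 was at -0.43 (limma adjusted p = 0.00277), with 2 of 37 matched genes at or below it. S100a13 was at -0.36 (limma adjusted p = 0.00613), with 24 of 102 at or below it. S100a4 (-0.22, limma adjusted p = 0.0567), S100a11 (-0.17, limma adjusted p = 0.128) and S100a10 (-0.069, limma adjusted p = 0.491) did not pass. The call of S100a13 thus exists only under this matching and, among the alternatives run, with the mean over probe sets (-0.30, limma adjusted p = 0.0320).

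**Figure D4:**
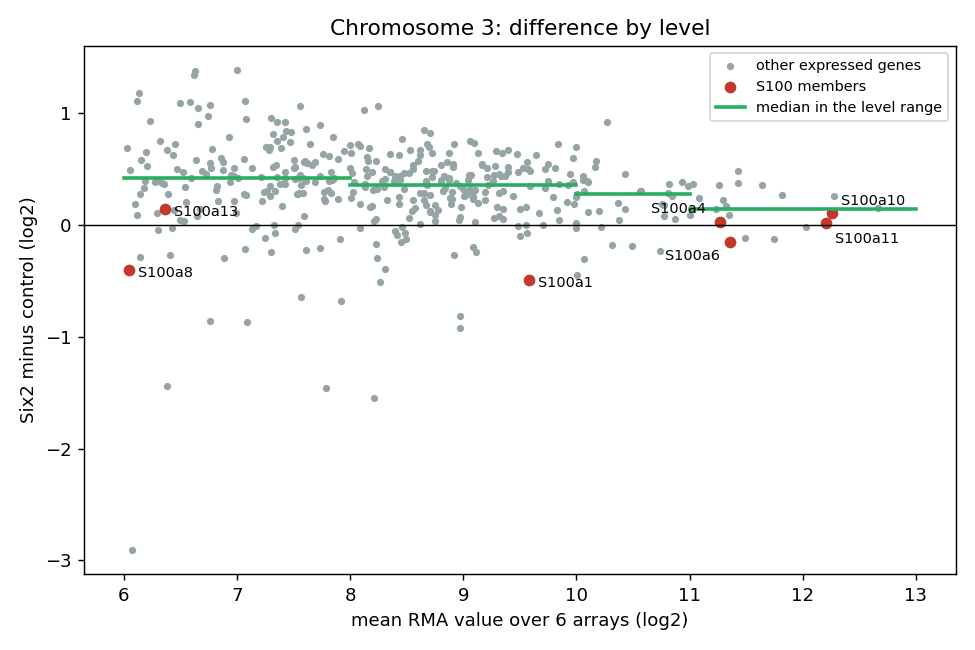
Difference (Six2 minus control, log2) against the mean RMA value over 6 arrays for the expressed genes of chromosome 3 (grey) and the 7 expressed S100 genes (red), with green lines for medians in level ranges, from 0.42 between 6 and 8 to 0.15 above 11. S100a10 lies near the median line of its range, and S100a1, S100a4, S100a6, S100a8, S100a11 and S100a13 lie below theirs.

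The stretch from S100a1 to S100a10 held 63 measured genes, 14 of them S100 genes. Only 8 of the 63 were expressed, namely the 7 members and S100a7a, a psoriasin relative. Of the epidermal differentiation genes listed, 29 of 31 were measured and 0 had a mean above 6. Among these 29, 1 rose at a dim level, Rptn, which encodes repetin (2.97 ± 0.063 in Six2 arrays, 2.54 ± 0.029 in control arrays, SD, n = 3 each, limma adjusted p = 0.0169), and 0 fell. Their median difference was -0.16. The list leaves out some genes of the complex, and over all 63 measured genes of the stretch 1 rose and 2 fell. The falls were S100a1 and the dim Lce1e, a late cornified envelope gene (-0.42, limma adjusted p = 0.0397). In the stretch and in the listed complex, calls in either direction were rarer than the 6.7% higher and 8.02% lower over all genes. For dim genes of chromosome 3, 9 rose and 8 fell of 390 up to level 4. From level 4 to 6, 27 rose and 15 fell of 171. The Rptn call was lost in 5 of 14 alternatives.

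The expressed genes beside the cluster were higher in Six2 arrays more often than not. Among the 50 nearest on each side, 27 of 100 rose, 2 fell and 81 were above 0, with a median of 0.27. Over all 419 expressed genes of chromosome 3, 42.5% rose and 3.1% fell, with a median of 0.37. The rise beside the cluster was thus smaller than over the chromosome. In an alternative the level subtracted came from the 50 nearest expressed genes on each side of the gene tested, without the members. The same 5 S100 genes passed in it as with the whole chromosome, from -0.81 for S100a1 to -0.29 for S100a4. Of the 5 nearest on either side of the cluster, 3 of 10 rose, against the 42.5% of the chromosome. Chtop, an mRNA export factor, was at 0.63 (SE 0.13, limma adjusted p = 0.0201). The mitochondrial ribosomal gene Mrpl9 was at 0.44 (SE 0.11, limma adjusted p = 0.0356). Snx27, a sorting nexin of endosomes, was at 0.64 (SE 0.10, limma adjusted p = 0.00769). The calls of Chtop and Mrpl9 were lost in 5 and 9 of 15 alternatives. The others were Gatad2b (0.18), Ilf2 (0.30), Snapin (0.084), Tuft1 (0.27), Pogz (0.47) and Psmb4 (0.23), which did not pass, and Ints3, at -4e-05. Chtop is the expressed gene next to S100a1, so a gene that rose and one that fell are neighbours there.

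**Figure D5:**
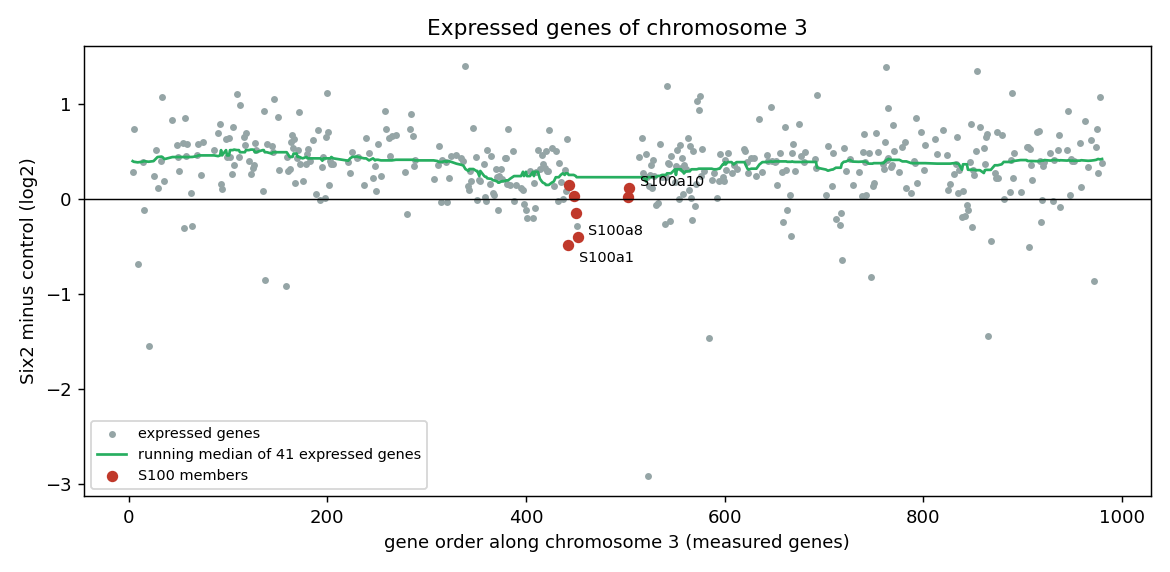
Difference (Six2 minus control, log2) of expressed genes in their order along chromosome 3, counted over measured genes, with S100 genes in red and a running median of 41 expressed genes as a green line. The S100 genes lie between -0.49 and 0.15, and most neighbours on either side lie above 0.

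Of the S100 genes listed beside the members, 0 of 6 measured passed, against 14.7% of all genes, with a median difference of -0.19. S100a2, which was not on that list, was dim and did not pass (-0.11, limma adjusted p = 0.534). S100a7a was at 6.74 in Six2 arrays and 7.03 in control arrays, and every Six2 array was lower (-0.29, SE 0.10, limma adjusted p = 0.0961). Relative to chromosome 3 it passed, at -0.59 (limma adjusted p = 0.000693). S100g, which encodes calbindin D9k, was at -0.36 (limma adjusted p = 0.0557) and S100z at -0.39 (limma adjusted p = 0.0847), both dim. S100a16 (-0.081), S100a5 (0.042) and S100b (-0.0052) were also dim, and their groups overlapped.

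Partners and receptors of S100 proteins changed in both directions. Of 30 measured genes of this list, 4 rose, 4 fell and 22 did not pass, with a median of -0.031. Over all genes 6.7% rose and 8.02% fell, and the list was not tested as a set. The falls were Plat and Myh9 (above), Il1a, the interleukin that S100A13 helps to release (3.17 in Six2 arrays, 4.28 in control arrays, limma adjusted p = 0.0033), and Anxa6, a membrane-binding annexin (-0.49, limma adjusted p = 0.0444). The rises, beside Cacybp and Plgrkt, were Mdm2, the ubiquitin ligase of p53 (0.58, SE 0.12, limma adjusted p = 0.0185), and Capza1, an actin-capping subunit (0.48, SE 0.09, limma adjusted p = 0.0141). Capza1 lies on chromosome 3 and did not pass relative to it (0.19). The Anxa6 call was lost in 7, the Mdm2 call in 6 and the Capza1 call in 4 of 15 alternatives.

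Of 12 annexins, 1 rose, 1 fell and 10 did not pass, with a median of -0.049. Over all genes 6.7% rose and 8.02% fell, so 1 of 12 in either direction is near the background. Anxa9, an annexin of chromosome 3 with a reduced ability to bind calcium, rose by 1.18 (SE 0.10, limma adjusted p = 0.000811), and this held in 15 of 15 alternatives. Of 30 other EF-hand proteins measured, 0 rose, 6 fell, against 8.02% of all genes, and 24 did not pass, with a median of -0.045. They were led by Capn1, the large subunit of calpain 1 (-0.92, SE 0.09, limma adjusted p = 0.00128), Pef1 (-0.63, SE 0.10, limma adjusted p = 0.00746), Chp1, a cofactor of sodium-proton exchangers (-0.53, SE 0.09, limma adjusted p = 0.00923), and Hpcal1, a neuronal calcium sensor (-0.46, SE 0.10, limma adjusted p = 0.0238). The calls of Hpcal1 and Chp1 were lost in 6 and 2 of 15 alternatives.

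The 5 expressed genes whose values followed S100a1 most closely over the 6 arrays were Fads2, 1110065P20Rik, Agpat2, Aif1l and Rgp1, with Pearson correlations of 0.995 to 0.996. The 6 points share their groups, so these correlations describe the same gap between Six2 and control arrays. Fads2, a fatty acid desaturase, was at -0.43, Agpat2, an enzyme of phospholipid synthesis, at -0.63, Aif1l, an EF-hand protein, at -0.40, 1110065P20Rik at -0.51 and Rgp1 at -0.25, and all but Rgp1 passed. The calls of Aif1l, Fads2 and 1110065P20Rik were lost in 9, 7 and 2 of 15 alternatives.

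Promoter windows from 250 bases before to 50 after a transcript start were taken from RefSeq (GRCm38.p6) for 8 of the 10 S100 genes, 11 windows in all, and searched on both strands. The letters TCAGGTT, the start of the MEF3 site that Six2 and its relatives bind, share CAGGT with the E-box CAGGTG of Snail and Zeb factors. They occurred in 4.07% of 32851 windows and in the window of 1 S100 gene, S100a6, which did not pass on its own but was lower against the chromosome. The TATA box letters TATAAA occurred in 13.6% of windows and in those of 4 S100 genes, S100a3, S100a4, S100a8 and S100a9. The share counts windows, while a gene can have several. In S100a3 the match was only in window 3, and in S100a9 it was at the start itself. The stretches with a match before the start are shown, since of these genes S100a3 and S100a8 had the larger differences and S100a4 one near 0. Capitals mark the matched letters, and a match is a description only. All are on the plus strand, S100a3 at chr3:90588483-90588562, S100a4 at chr3:90603690-90603769, S100a6 at chr3:90612694-90612773 and S100a8 at chr3:90668991-90669070.
S100a3: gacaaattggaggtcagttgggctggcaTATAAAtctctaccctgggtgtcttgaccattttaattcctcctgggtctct
S100a4: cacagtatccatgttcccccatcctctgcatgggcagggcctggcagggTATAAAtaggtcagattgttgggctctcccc
S100a6: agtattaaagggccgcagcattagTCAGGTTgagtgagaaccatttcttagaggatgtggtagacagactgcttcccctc
S100a8: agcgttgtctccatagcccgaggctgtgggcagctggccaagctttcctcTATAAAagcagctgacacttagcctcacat

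The TATA letters lie 31 bases before the start in S100a4, 30 in S100a8 and 52 in window 3 of S100a3. The MEF3 letters lie 176 bases before the start in S100a6. S100a1, the gene that fell, held neither motif in its window.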

How the data were processed

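Total RNA was labelled as cRNA from 6 ug per array, per the labels' protocols. Per the submitters' processing notes, RMA in Affymetrix Power Tools gave the log2 values per probe set that the authors deposited. Of their versions, row filter and build nothing is given in the sources used here. RMA makes array distributions alike, so a change in total RNA is not visible. Arrays carry no depth, and their number, 3 per group, limits the precision.

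In the platform annotation, 213361 probe sets had 1 symbol, 5107 several and 23108 none. Of the symbols, 18496 were found as given among RefSeq genes (GRCm38.p6), 2354 by synonym and 43 not at all. Gene values, medians over probe sets naming 1 gene, were compared with limma 3.58.1 (lmFit, eBayes) in R 4.3.3 with version 1.17.8 of the data.table package, two-sided, with Benjamini-Hochberg adjustment over all genes or, against the chromosome level, over expressed genes. Simulated data tested the limma fit of gene values and the subtraction of the chromosome level, but not the other steps.

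The members and lists were chosen with earlier results of these data known. Named genes were all members, up to 4 changed genes per direction and list, best known partners, the 5 nearest expressed genes on each side, the 5 most alike S100a1, Six2 and Cdh1; others, such as marker genes, S100a2, S100a11-ps and Lce1e, were picked after their values were seen. The sequences are RefSeq's. Alternatives varied the probe set summary, filter, normalization, variance model, block, arrays and the genes that set the chromosome level.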

Additional observations from a re-analysis of the deposited data

How the results depend on the processing

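The count of changed genes, 3068, was 4858 with the mean over probe sets, 1828 with the replicate block and 1565 to 2447 without single arrays. Higher genes were 45.5% of calls, or 56.9% with arrays centred on all genes, whose median difference was -0.046. The S100 count of 1 was 2 with the mean, the brightest probe set or a variance trend, 0 with the block or the best probe set and 0 to 2 without single arrays. Against chromosome 3, 5 calls became 3 to 5 without single arrays. To look for pairing, the mean of its group was taken from each value of an expressed gene. What was left correlated between same-numbered Six2 and control arrays by 0.067, 0.031 and 0.044, and each array correlated best with its own number. Such small correlations cannot settle whether the arrays were paired, and the main test took them as unpaired. With the replicate block, S100a1 had limma adjusted p = 0.0587 and 4 genes were lower against the chromosome. The chromosome 3 median was 0.27 by the brightest probe sets. S100a14 had no value once rows at or below the 30th percentile were left out.

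Signs turned in genes that did not pass, and the causes were not tested. With the mean over probe sets these were S100a11 (-0.0019), S100a13 (-0.019), S100a6 (0.013), Ints3 (0.023), S100a16 (0.0078) and, against the chromosome, S100a10 (0.0070). With the brightest probe set they were S100a14 (0.20), Ager (0.27), Anxa2 (-0.053), Fgf1 (0.23), Ints3 (0.093), Pogz (-0.052) and S100a16 (0.48). With dim rows left out, Ager was at 0.085 and S100a16 at 0.15. With quantile normalization, Fgf1 was at 0.017 and S100b at 0.035. With arrays centred on all genes, Fgf1 was at 0.027, Ints3 at 0.053 and S100b at 0.048, and centred on expressed genes Ints3 was at 1.58e-05. With the best probe set, S100a6 was at 0.28, S100a9 at -0.15, S100a11 at -0.060, Ints3 at 0.35 and S100a16 at 0.48. Without Six2 replicate 1, S100a14 was at 0.092, Fgf1 at 0.16 and Ints3 at 0.044. Without Six2 replicate 2, S100a11 was at -0.0020, S100a9 at -0.013 and S100a5 at -0.091. Without Six2 replicate 3, S100a9 was at -0.099, Ints3 at 0.0094 and S100a16 at 0.029. Without control replicate 1, Fgf1 was at 0.056 and S100a5 at -0.046. Without control replicate 2, S100a9 was at -0.065 and Fgf1 at 0.073. Without control replicate 3, S100a4 was at -0.012, Ints3 at 0.0015 and S100b at 0.19. The other ends of the ranges without single arrays were 0.055 for S100a11, -0.31 for S100a14, 0.063 for S100a4, 0.14 for S100a9, -0.21 for Fgf1, -0.054 for Ints3, -0.14 for S100a16 and -0.11 for S100b.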
